A study of Mus musculus with 2 samples.

Results

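Internal alternative promoters are transcription start sites (TSSs) that lie inside a gene, well downstream of its 5′ end, from which a shorter transcript of the same gene begins. They were defined on the protein-coding transcripts of GENCODE vM21 (mouse genome build GRCm38) as TSSs more than 3 kb downstream of the 5′ end of their own gene and more than 3 kb from any TSS of another gene. The rule used the annotation alone and no measured value. It and the gene lists below were chosen, however, with earlier results of these data known. It gave 10698 TSSs in 5616 genes, of 54361 distinct protein-coding TSSs in 21853 genes. TSSs of a gene within 500 bp of each other were also chained, which gave 8431 internal promoters.

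Accessibility was measured by ATAC-seq, in which a transposase cuts open chromatin and the cut ends are sequenced, in the organ of Corti, the sensory epithelium of the cochlea, dissected from P2 mice. There was 1 library of WT mice and 1 of Bmi1-/- littermates, each from 10 pooled mice. The Bmi1-/- mice carried a germline knockout (FVB.129P2-Bmi1tm1Brn/MvlJ, crossed into C57BL/6J) in all their cells, and the WT mice came from the same matings of Bmi1+/- parents. Bmi1 is a subunit of Polycomb repressive complex 1, which keeps developmental genes silent. The comparison addressed which chromatin regions are accessible with and without Bmi1.

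With 1 pooled library per genotype there was no replicate, so no test between genotypes was made, and every interval below covers counting error only. The peak names inside each list carry the prefix of the other genotype in 100% of lines, so that GEO's genotype is given here as a label (labelled WT, labelled Bmi1-/-), and each direction between genotypes rests on those labels. The lists held 77596 and 100431 peaks on chromosomes 1 to 19 and X and Y, and the commonest local background at a summit was 6.32 and 8.04 reads. By its background the library labelled Bmi1-/- was the deeper of the pair, and depth and genotype cannot be told apart. Of the 10 hair cell markers, 7 had a TSS peak labelled WT and 6 one labelled Bmi1-/-, with Myo7a and Otof in neither. Of the 10 supporting cell markers 5 and 9 had one, with Gata3 in neither. The counts were 4 and 3 of 10 for neurons, 3 and 5 for glia, 3 and 3 for mesenchyme, 4 and 4 for endothelium, and 3 and 0 for blood cells and macrophages. Of all protein-coding genes, 40.7% and 53.2% had a peak at any of their protein-coding TSSs. The part of these other cells in the results was not tested. The Bmi1 gene (chr2:18677018-18686629) held 1 peak labelled WT and 3 labelled Bmi1-/-, and since the sources used here do not place the deleted part, this does not check the labels.

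Many mammalian genes have several promoters. An internal promoter can give a transcript with another first exon and the same protein, or a protein that starts further along and lacks its amino-terminal part, and the choice among promoters is known to change between cell types and during development. Active promoters in mammals are usually depleted of nucleosomes, and most of those used in many tissues lie in CpG islands, stretches rich in G and C in which the CG dinucleotide is not depleted.

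Sequences of 7 internal promoters show the range of base composition. The first 4 are CpG-rich and have a peak in both lists, Ank2 and Kdm2a have a peak in both lists without being CpG-rich, and Filip1l has one in the list labelled Bmi1-/- alone. Each runs from 200 bases before the TSS to 30 bases from the TSS on, 5′ to 3′ on the strand of the gene, in build GRCm38, and capitals mark each CG.

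Specc1, chr11:62076795-62077024 (+ strand): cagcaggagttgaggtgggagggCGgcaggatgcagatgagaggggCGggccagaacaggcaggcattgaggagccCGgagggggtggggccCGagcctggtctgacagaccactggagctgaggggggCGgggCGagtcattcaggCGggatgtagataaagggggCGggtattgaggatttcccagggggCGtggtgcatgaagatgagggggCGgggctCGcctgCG
Iffo2, chr4:139574520-139574749 (+ strand): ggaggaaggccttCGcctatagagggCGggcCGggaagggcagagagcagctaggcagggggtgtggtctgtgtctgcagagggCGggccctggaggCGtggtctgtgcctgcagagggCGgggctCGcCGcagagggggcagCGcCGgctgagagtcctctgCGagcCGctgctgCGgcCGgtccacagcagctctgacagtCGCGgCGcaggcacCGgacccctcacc
Hif1a, chr12:73907704-73907933 (+ strand): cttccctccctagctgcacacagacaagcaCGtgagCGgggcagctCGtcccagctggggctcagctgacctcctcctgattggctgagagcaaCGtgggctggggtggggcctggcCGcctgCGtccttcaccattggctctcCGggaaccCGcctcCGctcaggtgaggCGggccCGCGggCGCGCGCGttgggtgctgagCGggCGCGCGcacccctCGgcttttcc
Sgk1, chr10:21994466-21994695 (+ strand): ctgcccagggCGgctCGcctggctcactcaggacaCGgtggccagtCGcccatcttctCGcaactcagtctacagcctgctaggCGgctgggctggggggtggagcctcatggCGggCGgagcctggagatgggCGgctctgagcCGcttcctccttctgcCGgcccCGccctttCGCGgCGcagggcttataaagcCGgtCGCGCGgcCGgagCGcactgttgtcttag
Ank2, chr3:127409030-127409259 (- strand): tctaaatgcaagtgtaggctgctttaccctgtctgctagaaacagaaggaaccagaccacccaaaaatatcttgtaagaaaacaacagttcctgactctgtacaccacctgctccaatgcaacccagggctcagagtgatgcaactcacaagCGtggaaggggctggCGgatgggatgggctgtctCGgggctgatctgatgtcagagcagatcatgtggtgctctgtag
Kdm2a, chr19:4333972-4334201 (- strand): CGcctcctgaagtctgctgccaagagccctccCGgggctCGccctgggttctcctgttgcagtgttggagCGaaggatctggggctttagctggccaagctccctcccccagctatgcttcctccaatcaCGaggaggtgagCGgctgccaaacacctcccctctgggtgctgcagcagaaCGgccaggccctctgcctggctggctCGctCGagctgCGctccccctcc
Filip1l, chr16:57549042-57549271 (+ strand): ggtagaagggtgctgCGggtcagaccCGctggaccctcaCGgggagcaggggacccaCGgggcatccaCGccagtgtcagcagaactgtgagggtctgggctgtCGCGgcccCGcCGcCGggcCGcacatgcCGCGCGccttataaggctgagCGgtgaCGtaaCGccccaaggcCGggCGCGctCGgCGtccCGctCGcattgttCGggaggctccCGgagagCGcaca

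These windows held 12, 18, 21 and 21 CG for Specc1, Iffo2, Hif1a and Sgk1, against 3 for Ank2 and 10 for Kdm2a, while Filip1l held 27. The GC box GGGCGG, searched on both strands, occurred 5 times in the window of Specc1, 3 times in that of Iffo2 and 4 times in that of Sgk1, and was not in those of Hif1a, Ank2, Kdm2a and Filip1l. CCAAT, also on both strands, occurred 2 times in the window of Hif1a and 1 time each in those of Ank2 and Kdm2a.

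Peaks lay at a minority of internal TSSs. A peak of the list labelled WT had its centre within 500 bp of 1642 of the 10698 internal TSSs, or 15.3% (95% exact binomial interval 14.7% to 16.0%), against 34.5% of all protein-coding TSSs. In the list labelled Bmi1-/- it was 2165, or 20.2% (19.5% to 21%), against 45.7% of all. Both lists had a peak at 1063 internal TSSs of 528 genes, or 9.94%, against 28.8% of all TSSs, and 7954 internal TSSs had none in either list. Neighbouring TSSs can share a peak. Over the chained promoters the shares were 11.8% and 15.8%, with 6.65% in both. Of the genes, 898 (16.0%) and 1171 (20.9%) had a peak at 1 or more internal TSSs.

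The 5′ ends of the same 5616 genes were more often accessible. They had a peak at 2149 (38.3%) in the list labelled WT and at 2720 (48.4%) in the list labelled Bmi1-/-. The share at internal TSSs was 22.9 percentage points lower than at the 5′ ends in the first list (difference -22.9, 95% interval -24.4 to -21.5) and 28.2 points lower in the second (difference -28.2, -29.7 to -26.7), by a normal approximation to the counts. Where the 5′ ends were also kept more than 3 kb from other genes, as the internal TSSs are, their shares were 33.5% and 42.9%. Internal TSSs still stood above their surroundings, since at 2 kb upstream, away from any other TSS, 3.36% and 4.83% of positions had a peak within 500 bp, and at 2 kb downstream 4.58% and 5.04%.

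**Figure D1:**
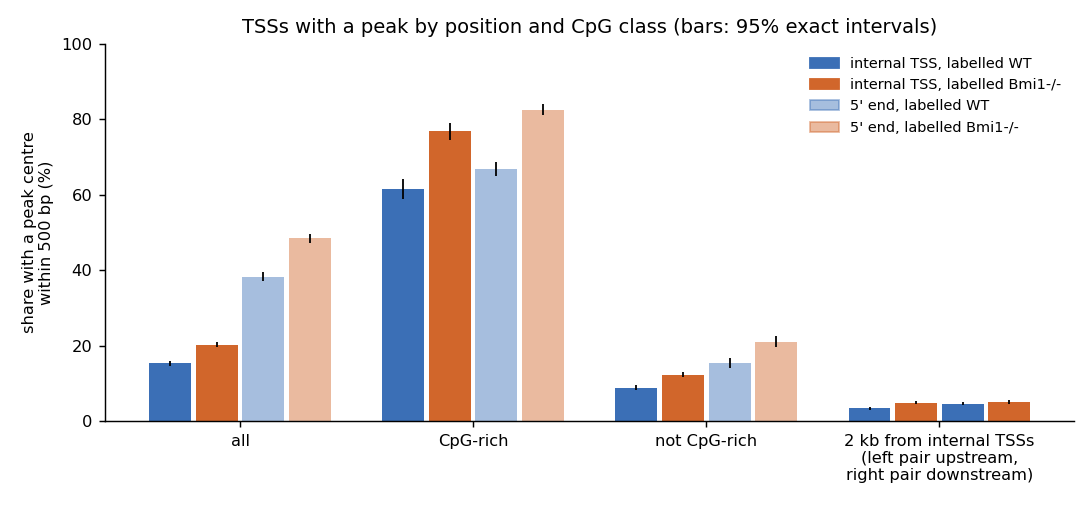
Share of internal TSSs (full colour) and of the 5′ ends of the same genes (pale) with a peak centre within 500 bp, in percent, by CpG class and at positions 2 kb from internal TSSs, for the lists labelled WT (blue) and Bmi1-/- (orange). Bars reach from 0 and lines are 95% exact intervals, and internal TSSs go from 8.83% and 12.3% where not CpG-rich to 61.6% and 76.8% where CpG-rich.

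Peak centres gathered on the internal TSSs themselves. In the central 100 bp there were 29.1 and 33.5 peak centres per 1000 internal TSSs in the lists labelled WT and Bmi1-/-, against 74.1 and 95.1 per 1000 at the 5′ ends. In the 100 bp centred 2 kb upstream there were 4.49 and 4.67 per 1000 internal TSSs. Of the internal TSSs with a peak, 34.5% and 32.7% had its centre within 100 bp, and the median centre lay 8 bp and 22 bp downstream. Only centres within 500 bp on either side counted for this, so a median near the TSS was built in. At the 5′ ends the medians were 43 bp and 64 bp.

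**Figure D2:**
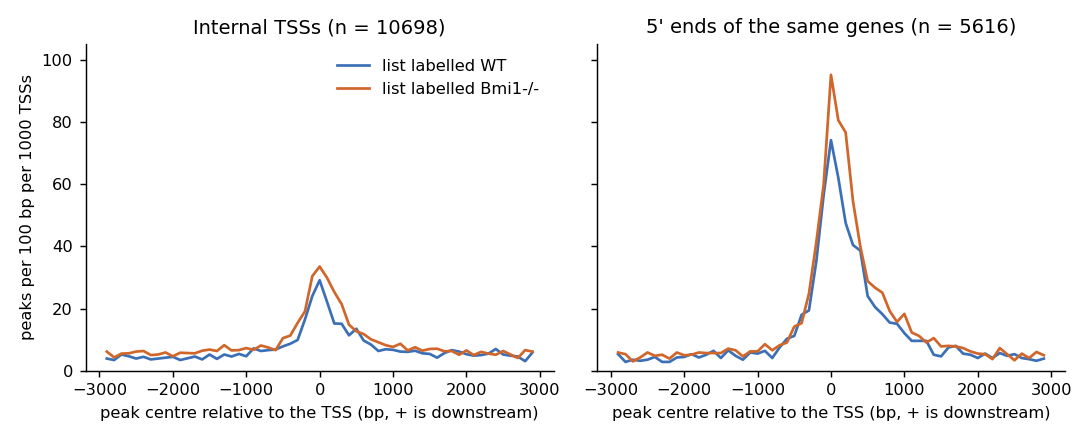
Number of peak centres per 100 bp and per 1000 TSSs (vertical axis) by distance from the TSS in bp (horizontal axis, downstream positive), at internal TSSs (left) and at the 5′ ends of the same genes (right), for the lists labelled WT (blue) and Bmi1-/- (orange). Both lists peak at the TSS in both panels, at 29.1 and 33.5 for internal TSSs and 74.1 and 95.1 for the 5′ ends.

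CpG content split the internal TSSs more than any other feature examined here. A TSS was called CpG-rich where the sequence within 250 bp of it held at least 55% G and C and a ratio of observed to expected CG of at least 0.65. By this rule 1321 internal TSSs (12.3%) were CpG-rich, against 44.6% of the 5′ ends of the same genes and 40.5% of all protein-coding TSSs. Of the CpG-rich internal TSSs, 61.6% had a peak in the list labelled WT, 76.8% in the list labelled Bmi1-/- and 54.3% in both. Of those that were not CpG-rich, 8.83%, 12.3% and 3.69% did.

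Within a CpG class the internal TSSs came closer to the 5′ ends. CpG-rich 5′ ends had a peak in 66.9% and 82.6%, which left differences of -5.23 points (-8.44 to -2.03) in the list labelled WT and -5.87 points (-8.59 to -3.15) in the list labelled Bmi1-/-. For TSSs that were not CpG-rich the 5′ ends had a peak in 15.3% and 20.9%, and the differences were -6.43 points (-7.82 to -5.05) and -8.64 points (-10.2 to -7.07).

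Of 4 promoter motifs searched, the GC box and an ETS motif were more frequent at accessible internal TSSs with both CpG classes pooled. CCAAT and TATAAA were not. The GC box GGGCGG, the site of Sp1 and related factors, was found on either strand between 200 bases before and 50 bases after the TSS in 63.4% of the internal TSSs with a peak in both lists and in 9.82% of those with none, against 41.3% of all protein-coding TSSs. Among CpG-rich internal TSSs alone it was in 77.3% and 72.4%, with intervals of 74.0% to 80.3% and 65.8% to 78.3% that overlap. Among those that were not CpG-rich, which are 7744 of the 7954 with no peak, it was in 34.7% (29.7% to 40%) and 8.12% (7.52% to 8.75%). CCGGAAG, a motif of ETS factors, was in 10.4% and 2.11%, against 9.91% of all TSSs, and among the CpG-rich ones in 13.4% (11.0% to 16.1%) and 5.24% (2.64% to 9.18%). CCAAT did not separate the pooled sets, at 28.6% and 30.1%, with 31.7% of all TSSs. Among the CpG-rich ones it was in 28.3% (25% to 31.8%) and 19.5% (14.4% to 25.5%), with intervals that just overlap. Among the others it was in 29.2% and 30.4%. TATAAA between 40 and 20 bases before the TSS was in 0.376% and 1.12% of the pooled sets, and in 1.52% of all TSSs. These are matches of letters and not bound sites.

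Annotation quality and place in the gene moved with accessibility too. An internal TSS was called exonic where it lay inside an exon of a transcript of the same gene that starts more than 500 bp upstream, and 4805 were. Exonic TSSs had a peak in 7.76% and 10.2%, and the other 5893, called intronic, in 21.5% and 28.4%. TSSs whose transcripts are all tagged in GENCODE as incomplete at the start of the mRNA or coding sequence had a peak in 7.69% and 10.2%, against 18.4% and 24.3% of those with a complete 5′ end. Most incomplete ones, 2857 of 3080, were exonic and not CpG-rich, and within that class the order turned, with 7.11% and 9.10% of incomplete against 5.33% and 7.16% of 1801 complete ones. The intervals overlap in each list (6.19% to 8.11% and 4.34% to 6.47%, then 8.07% to 10.2% and 6.01% to 8.45%). TSSs with a transcript of support level 1 had one in 21.6% and 28.6%, and the rest in 12.3% and 16.1%. The distance from the 5′ end counted for less, with 17.2% and 21.2% at 3 to 10 kb and 12.2% and 17.5% beyond 100 kb. At the edge of the rule, the 788 TSSs just inside it, at 3 to 4 kb, had a peak in 14.7% and 16.9%, and the 837 left out just short of it, at 2 to 3 kb, in 12.8% and 17.2%.

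The effect on the protein could be read from the annotation for 7060 internal TSSs. The transcripts of 2778 begin translation at a start codon that no upstream transcript of the gene uses, and of these 20.6% had a peak labelled WT and 28.4% a peak labelled Bmi1-/-. The 4282 that share the start codon of an upstream transcript begin the protein at the same place, and 15.7% and 19.8% of them had a peak. Of the TSSs with a peak in both lists and a known start codon, 48.1% had a new one, against 39.3% of all such internal TSSs. The share was 48.3% with a peak labelled Bmi1-/- alone, 41.4% with one labelled WT alone and 36.3% with none.

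Whether an internal TSS is internal depends on the annotation that sets the 5′ end. In a check added after the data were seen, 1945 internal TSSs (18.2%) lay within 500 bp of the 5′-most TSS that curated RefSeq transcripts give the same gene, 2484 (23.2%) lay at another RefSeq TSS of the gene, and 6028 (56.3%) lay at none. For 241 the gene symbol was not in RefSeq. Peaks were at 24.6% and 33.2% of the first class, 25.1% and 33.1% of the second and 8.51% and 10.9% of the third, in the lists labelled WT and Bmi1-/-. Of the 1063 internal TSSs with a peak in both lists, 398 (37.4%) were thus the outermost start in RefSeq, and 458 (43.1%) were internal in both annotations.

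**Figure D3:**
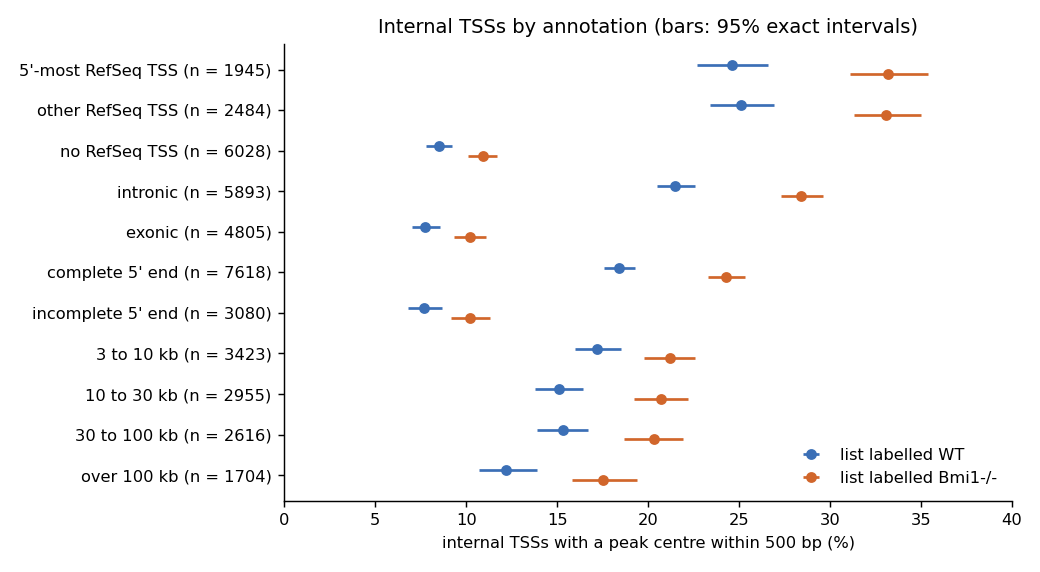
Share of internal TSSs with a peak centre within 500 bp, in percent (horizontal axis), by RefSeq class, place in the gene, completeness of the transcript and distance from the 5′ end (rows), for the lists labelled WT (blue) and Bmi1-/- (orange). Points are shares and lines 95% exact intervals, and TSSs at no RefSeq TSS, exonic TSSs and TSSs of incomplete transcripts lie lowest, at 7.69% to 10.9%.

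Accessible internal TSSs lay both in genes with and in genes without a peak at the GENCODE 5′ end. Of the 1063 with a peak in both lists, 565 (53.2%, 50.1% to 56.2%) in 264 genes had a 5′ end with no peak in either list, 244 (23.0%) had one in 1 list and 254 (23.9%) in both. The 5′ end had no peak in either list for 4794 (44.8%, 43.9% to 45.8%) of all internal TSSs and in 2581 (46.0%) of the 5616 genes, against 264 (50%, 45.7% to 54.3%) of the 528 genes. The RefSeq class mattered here as well. Of the 565, 264 (46.7%) were the 5′-most RefSeq TSS and 221 (39.1%) were another RefSeq TSS, while of the 254 with a 5′ end peak in both lists 52 (20.5%) and 130 (51.2%) were. Internal TSSs of genes with a peak at the 5′ end had a peak labelled WT in 13.0% and one labelled Bmi1-/- in 17.5%, and those of genes without one in 16.8% and 22.8%. Among CpG-rich internal TSSs the order was the other way round, at 64.6% and 79.4% with a peak at the 5′ end and 60.5% and 75.4% without, with intervals that overlap in each list (59.4% to 69.6% and 57.4% to 63.6%, then 75.4% to 83.1% and 72.4% to 78.2%). Among the others the shares were 8.29% and 11.8% with a peak at the 5′ end and 9.21% and 12.8% without. Those intervals overlap too (7.43% to 9.21% and 8.46% to 10.0%, then 10.9% to 12.7% and 11.8% to 13.8%).

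The most significant internal TSSs in both lists were ranked by the −log10 p of the peak as a percentile of its own list. Litaf, a gene of a small membrane protein of late endosomes, came first. Its internal TSS (chr16, position 10975579, minus strand, 90.6 kb from the 5′ end, in an intron) had a peak with a −log10 q of 35.6 in the list labelled WT, from 76 reads at the summit over a background of 9.92, and of 31.7 in the list labelled Bmi1-/-, from 77 reads over 11.7. The peak at chr16:10974980-10975305 lay wholly downstream of the TSS, the TSS was not CpG-rich (52.1% G and C) and RefSeq has no TSS there.

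Specc1, which encodes a coiled-coil protein, followed with a CpG-rich internal TSS at position 62076995 of chromosome 11, 120 kb from its 5′ end. Its −log10 q (larger is more significant) was 11.1 for WT and 20.7 for Bmi1-/- as labelled, and its sequence with 5 GC boxes is printed above. The internal TSS of Iffo2, an intermediate filament family gene, had 8.84 and 13.9, with 42 and 60 reads at the summit. That of Ppp2r3d, a regulatory subunit gene of protein phosphatase 2A, had 12.1 and 13.8, and its 5′ end had peaks as well, at percentiles 97.7 and 97.5.

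Hif1a, the oxygen-regulated transcription factor gene, had peaks with a −log10 q of 7.64 and 13.8 at its internal TSS (chr12, position 73907904, 6.53 kb from the 5′ end), whose transcripts use another start codon. Its 5′ end had none in either list. Srrm2 (splicing) had 7.18 and 11.6, and Ndel1 (dynein regulation) 7.70 and 11.0. Both have their 5′-most RefSeq TSS there. The predicted gene Gm10717 was also among the top 8, at 16.8 and 11.5. It lies within the first 3.1 Mb of chromosome 9, where the median background at its 3 internal TSSs was 26.4 and 27.0 reads, far above the commonest values, and its values are uncertain.

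Genes with an accessible internal TSS and no peak at the 5′ end were led by Iffo2, Hif1a, Srrm2 and Ndel1, and then by Rbpj, the DNA-binding factor of Notch signalling. The internal TSS of Rbpj (chr5, position 53590471, 124 kb from the 5′ end) had a −log10 q of 7.81 and 11.0. Set, which encodes a histone chaperone, had 7.98 and 10.1 at 9.08 kb. Mllt10, a partner of the histone methyltransferase Dot1l, had 5.87 and 12.7 at 9.40 kb, and Dcun1d4, a gene of cullin neddylation, had 8.34 and 9.55 at 10.0 kb. In these 4 genes the internal TSS is a RefSeq TSS other than the 5′-most, is CpG-rich and comes with a new start codon.

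Among the RefSeq-internal TSSs with peaks at the 5′ end too, a group named after its values were seen, both promoters of a gene could be compared. Tef, a transcription factor gene of the circadian output, had internal peaks with a −log10 q of 3.68 and 12.9, and 5′ end peaks with 4.35 and 4.49, in the lists labelled WT and Bmi1-/-. Adk, which encodes adenosine kinase, had 3.31 and 6.56 at the internal TSS and 4.30 and 6.84 at the 5′ end. Hmgb1, a gene of an abundant chromatin protein, had 3.79 and 4.60 inside and 7.82 and 12.2 at the 5′ end. In Hmgb1 all 3 internal promoters had a peak in both lists, and Rreb1, a zinc finger gene, had 3 of 5. These are the 2 genes with 3 or more, 31 genes had 2 or more, and 1682 genes have at least 2 internal promoters.

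Peaks at internal TSSs were stronger than the run of peaks and weaker than those at 5′ ends. The 1037 peaks of the list labelled WT had a median percentile of 62.9 and a median width of 295 bp, and the 1365 of the list labelled Bmi1-/- had 65.4 and 341 bp. At the 5′ ends the medians were 81.0 and 368 bp, and 90.6 and 550 bp. The median number of reads at the summit of an internal TSS peak was 20 and 25, and 63.3% and 73.3% had a q under 0.05, so that a large part of them rests on few reads.

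The 2 lists shared part of these peaks. Of the internal TSS peaks labelled WT, 553 (53.3%, 50.2% to 56.4%) overlapped a peak of the other list by at least 1 bp, against 84.7% of 5′ end peaks and 24.8% of all peaks. Of those labelled Bmi1-/-, 540 (39.6%, 37.0% to 42.2%) did, against 64.6% and 18.5%. The overlap followed strength. It was 41.3% and 22.0% for internal TSS peaks up to the 50th percentile, 51.9% and 34.2% up to the 90th, and 78.7% and 73.7% above. In the top bin the 5′ end peaks had 95.9% and 83.6%.

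**Figure D4:**
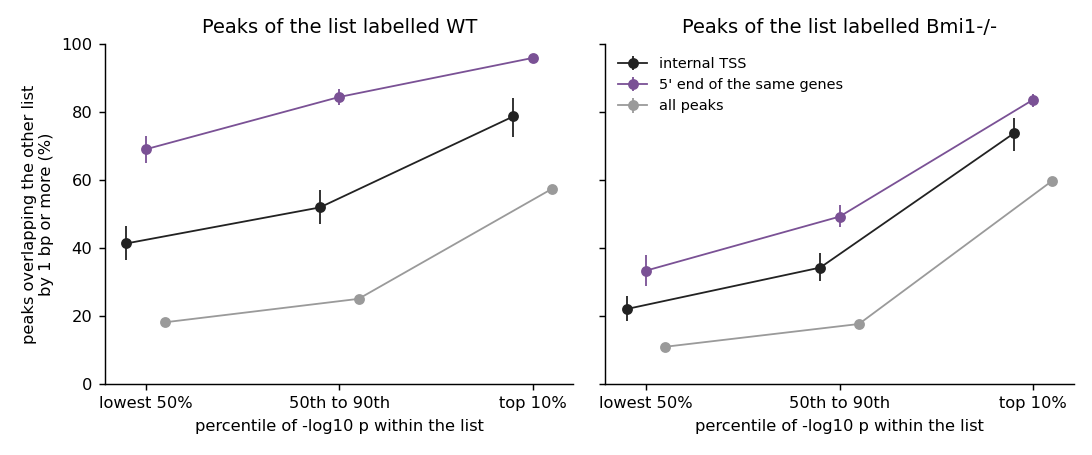
Share of peaks that overlap a peak of the other list by at least 1 bp, in percent (vertical axis), by percentile of the −log10 p within the list (horizontal axis), for peaks at internal TSSs (black), at the 5′ ends of the same genes (purple) and for all peaks (grey), with the list labelled WT on the left and the list labelled Bmi1-/- on the right. Lines are 95% exact intervals, and internal TSS peaks lie above all peaks and below 5′ end peaks in each bin of strength.

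More internal TSSs had a peak in the longer list alone than in the shorter list alone. There were 1102 with a peak labelled Bmi1-/- alone (10.3%, against 16.8% of all protein-coding TSSs) and 579 with a peak labelled WT alone (5.41%, against 5.65%). The ratio of these counts was 1.90 (1.72 to 2.11), against 2.81 (2.47 to 3.21) at the 5′ ends of the same genes and 2.98 (2.86 to 3.11) at all TSSs. With TSSs shared by both lists counted too, the ratio was 1.32 (1.24 to 1.41), 1.27 (1.20 to 1.34) and 1.32 (1.30 to 1.35), near the 1.29 between the numbers of peaks in the lists. The ratio of 1.90 changed with the choice of peaks, to 1.40 with the same number of strongest peaks in each list and to 7.97 at a −log10 q no lower than 5. With the labels exchanged, as the peak names have them, it would be 0.525 (0.474 to 0.582). As labelled, it was 3.06 (2.43 to 3.89) for CpG-rich internal TSSs and 1.67 (1.49 to 1.87) for the others. At the 5′ ends it was 3.84 (3.18 to 4.66) where CpG-rich, and its interval for the others was 1.66 to 2.41. Within each CpG class the intervals of internal TSSs and 5′ ends overlap. Among internal TSSs with a peak labelled Bmi1-/- alone 27.0% were CpG-rich, and among those labelled WT alone 16.8%. Of those with a peak in both lists 67.5% were. Of these TSSs, 1001 (90.8%) and 518 (89.5%) had no peak of the other list touching the window at all, a ratio of 1.93 (1.74 to 2.15).

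Of the 4 highest ranked with a peak labelled Bmi1-/- alone, those of Kat6b, Tbc1d14 and Dcun1d4 were overlapped by a peak labelled WT whose centre lay outside the window. Kat6b, a histone acetyltransferase gene, shows this in both directions. Its TSS at position 21500853 of chromosome 14 counted for the list labelled Bmi1-/- (peak 21499749 to 21501344) and its TSS at 21499785 for the list labelled WT (peak 21499577 to 21500899), and the peaks overlap. The TSS at 21499785 is the 5′-most in RefSeq, which has none at 21500853. The fourth, Ptprs (a receptor-type phosphatase of neurons), had no overlapping peak labelled WT. Its −log10 q was 9.29 from 58 reads over a background of 18.3. Of the 4 highest with a peak labelled WT alone, Kat6b, Sgk1 (7.56) and Impact (6.90) were likewise overlapped by an off-centre peak labelled Bmi1-/-, and Noct was not.

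The strongest internal TSSs with no overlap at all were picked out after the values were seen. In the list labelled Bmi1-/- they were Ptprs, Filip1l (−log10 q 8.28, 35 reads), Por (7.35, 41 reads), Cnih4 (7.12, 33 reads) and Bicdl1 (6.77, 45 reads). Por encodes the reductase that passes electrons to cytochrome P450 enzymes, and Filip1l a filamin-interacting protein. In the list labelled WT they were Noct (7.30, 30 reads), Plekha5 (4.85, 26 reads), Vgf (4.79, 31 reads), Prss16 (4.77, 28 reads) and Txndc16 (4.30, 25 reads). Noct encodes a rhythmically expressed phosphatase and Vgf a neuronal secreted precursor. The TSSs of Por, Plekha5 and Txndc16 belong to transcripts with an incomplete 5′ end. RefSeq has no TSS there, nor at those of Noct, Prss16 and Bicdl1. Those of Vgf and Cnih4 are the 5′-most in RefSeq, and those of Ptprs and Filip1l are other RefSeq TSSs. The TSSs of Plekha5, Vgf, Prss16 and Txndc16 are exonic. Rank for rank the −log10 q values were lower in the list labelled WT, which has the lower background.

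Hair cell and deafness genes were within counting error of all internal TSSs. Of 67 such genes listed, 35 have an internal TSS, and 9, 7 and 5 had a peak at 1 or more in the list labelled WT, in the list labelled Bmi1-/- and in both. Over their 78 TSSs the shares were 16.7% (9.18% to 26.8%) and 14.1% (7.26% to 23.8%), against the 15.3% and 20.2% of all internal TSSs, and 8.97% (3.68% to 17.6%) against 9.94% in both. TSSs of a list share genes and peaks, so that the intervals given for lists are too narrow. Eps8, an actin regulator of stereocilia, had the strongest, with percentiles of 92.9 and 81.4 at its TSS at position 137649242 of chromosome 6, which is the 5′-most in RefSeq. Synj2, a lipid phosphatase gene, had 28.8 and 38.9, and Triobp, an actin bundler of the stereocilia rootlets, 16.0 and 82.6. In Myo1c, Whrn, Kcnma1 and Eya4 a peak was in the list labelled WT alone, at percentiles of 52.8, 85.3, 73.7 and 12.1. In Espn, an actin bundler of stereocilia, and Col9a1, a collagen gene, it was in the other list alone, at 22.7 and 79.9.

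Transcription factor genes had a peak at 13 (labelled WT) and 30 (labelled Bmi1-/-) of 204 internal TSSs, or 6.37% (3.44% to 10.7%) and 14.7% (10.1% to 20.3%). All internal TSSs, at 15.3% and 20.2%, lie above the first interval and within the second. Of the 42 genes, 8, 14 and 5 had 1 or more in the list labelled WT, in the other and in both. The named TSS of Runx1, a factor of blood cell development, lies 129 kb from the 5′ end, and was at percentiles 90.3 and 73.4, with no peak at the 5′ end. Npas3 was at 67.7 and 89.9, Satb1 at 27.0 and 94.1, and Tcf7l2, a Wnt effector, at 12.1 and 93.7. Zbtb20 had 5 of 9 internal TSSs with a peak in the list labelled Bmi1-/- and 0 in the other, and Mitf 0 and 2 of 4, the latter at percentile 95.3. The internal TSSs of Zbtb20 and Mitf form 6 and 3 chained promoters.

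Nuclear receptors and their partners had peaks at 37.0% (24.3% to 51.3%) and 35.2% (22.7% to 49.4%) of 54 TSSs, above the 15.3% and 20.2% of all internal TSSs, with 24.1% in both (13.5% to 37.6%), and 31.5% of these TSSs were CpG-rich against 12.3% of all. Of the 26 genes, 10, 8 and 6 had a peak. Nr3c1, the glucocorticoid receptor gene, led with percentiles of 97.0 and 93.7 at 29.5 kb from the 5′ end. Of its 8 internal TSSs, which form 5 chained promoters, 5 and 6 had a peak. Rara, a retinoic acid receptor gene, was at 65.9 and 90. Rora was at 63.9 and 94.9 as far as 636 kb from its 5′ end, and Nr1h3, the oxysterol receptor LXR alpha, at 31.4 and 72.7. The named TSSs of Rara and Nr1h3 are the 5′-most in RefSeq. Esrrg had 2 TSSs, in 1 chained promoter, with a peak in the list labelled WT at percentile 95.3 and 0 in the other.

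Synaptic and neuronal genes had 18 of 183 internal TSSs with a peak labelled WT (9.84%) and 44 with one labelled Bmi1-/- (24.0%). Of the 183, 33 had one in the latter list alone and 7 in the former alone. Of all 10698 internal TSSs, 1102 (10.3%) and 579 (5.41%) did. The interval of the share labelled WT (5.93% to 15.1%) ends just under the 15.3% of all internal TSSs. That of the share labelled Bmi1-/- (18% to 30.9%) holds their 20.2%. Of the 50 genes 10, 22 and 6 had one. Homer1, a postsynaptic scaffold gene, was the strongest, with −log10 q of 7.33 and 9.04 at 4.47 kb, where RefSeq has its 5′-most TSS. Nav2, a gene of axon growth, was at percentiles 95.7 and 94.2, also at its 5′-most RefSeq TSS. Bdnf, the neurotrophin of spiral ganglion neurons, is known for its many promoters, and its named TSS was at 89.1 and 96.7, with peaks at 3 and 4 of its 6 internal TSSs and none at the 5′ end. Auts2 was at 94.2 and 65.1, 1005 kb from its 5′ end. Dlg4, the scaffold PSD-95, had a peak at 2 and 5 of its 10 internal TSSs, which form 4 chained promoters.

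Cytoskeleton, adhesion and matrix genes had 62 and 63 of 277 internal TSSs with a peak (22.4% and 22.7%). Of the 277, 28 had one labelled Bmi1-/- alone and 27 one labelled WT alone. Of all 10698 internal TSSs, 1102 (10.3%) and 579 (5.41%) did. Against the 15.3% and 20.2% of all internal TSSs, the share labelled WT was higher (17.6% to 27.8%). The share labelled Bmi1-/- (17.9% to 28.1%) was within counting error. CpG-rich were 9.39% of the 277 TSSs, against 12.3% of all. Of the 45 genes 22, 25 and 12 had a peak. Itga6, an integrin of the basement membrane, led with percentiles of 97.1 and 98.1 at a TSS that is the 5′-most in RefSeq. Ank2, an ankyrin gene, was at 96.8 and 97.5, 90.3 kb from its 5′ end, and its sequence, printed above, is not CpG-rich. Epb41l3 was at 90 and 95.2, and Tpm3, a tropomyosin gene, at 89.1 and 96.1. All 6 internal TSSs of Tpm1, which form 1 chained promoter, had a peak in both lists. Kalrn had 0 and 8 of 13 with a peak, and Sorbs2 4 and 0 of 18. Their internal TSSs form 7 and 8 chained promoters, and neighbours can share a peak.

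Cyclic nucleotide, kinase and growth factor signalling genes had 47 and 77 of 219 internal TSSs with a peak (21.5% and 35.2%), 38 in the list labelled Bmi1-/- alone and 8 in the list labelled WT alone. Both intervals (16.2% to 27.5% and 28.8% to 41.9%) lie above the 15.3% and 20.2% of all internal TSSs. Of all 10698 internal TSSs, 1102 (10.3%) and 579 (5.41%) had a peak in 1 list alone. CpG-rich were 17.4% of the 219 TSSs, against 12.3% of all, and the part of this was not tested. Of the 57 genes 18, 30 and 14 had a peak. Sgk1, the serum- and glucocorticoid-induced kinase, led with −log10 q of 7.56 and 5.79 at its TSS at position 21994666 of chromosome 10, 112 kb from the 5′ end. Arhgef7 was at percentiles 89.9 and 96.0, Pde1c at 83.0 and 89.4, and Gnas, the gene of the stimulatory G protein alpha subunit, at 75.6 and 96.7, where its transcript starts 46.0 kb inside the GENCODE gene. Pde4d had 0 and 5 of 11 internal TSSs with a peak.

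Chromatin and cell cycle genes had 15 and 45 of 125 internal TSSs with a peak (12% and 36.0%), 32 with a peak labelled Bmi1-/- alone and 2 with one labelled WT alone. Of all internal TSSs 15.3% and 20.2% had a peak, the first within the interval of the list (6.87% to 19%) and the second below it (27.6% to 45.1%). Of all 10698 internal TSSs, 1102 (10.3%) and 579 (5.41%) had one in 1 list alone. CpG-rich were 19.2% of the 125 TSSs, against 12.3% of all, and the part of this was not tested. Of the 32 TSSs with a peak labelled Bmi1-/- alone, 14 belong to Smarca2, an ATPase of the SWI/SNF complexes. They lie in 2 neighbouring promoters with the same percentile, 75.9. Of the 32 genes 8, 15 and 7 had a peak at 1 or more. The histone demethylase gene Kdm2a was the strongest, with −log10 q of 4.85 and 10.0 at a TSS that RefSeq lacks. Hdac4 was at percentiles 93.4 and 98.5, Kdm2b at 93.5 and 89.5, and Pcgf5, a paralogue of Bmi1 in Polycomb complexes, at 83.0 and 94.9. The named TSS of Hdac4 is the 5′-most in RefSeq. Dnmt1, the maintenance DNA methyltransferase, had 0 and 3 of 3, in 1 chained promoter, at percentile 95.2.

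Bmi1 has 4 internal TSSs in 2 chained promoters, between 3354 and 4089 bp from its 5′ end. None had a peak in the list labelled WT, and the TSSs at 18680994 and 18681107 had one in the list labelled Bmi1-/-, at percentile 33.2. Its 5′ end had a peak in both, at percentiles 44.3 and 92.0. Among its Polycomb partners, Phc2 had a peak in both lists at 5 of 6 internal TSSs (percentiles 67 and 64.8), Cbx7 had 0 and 4 of 5 (65.7), and Rnf2 had 0 and 1 of 1 (79.9). The internal TSSs of Phc2 form 2 chained promoters, and so do those of Cbx7. Pcgf2 with 1 internal TSS, and Phc1 and Ezh2 with 2 each, had no peak at them in either list.

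**Figure D5:**
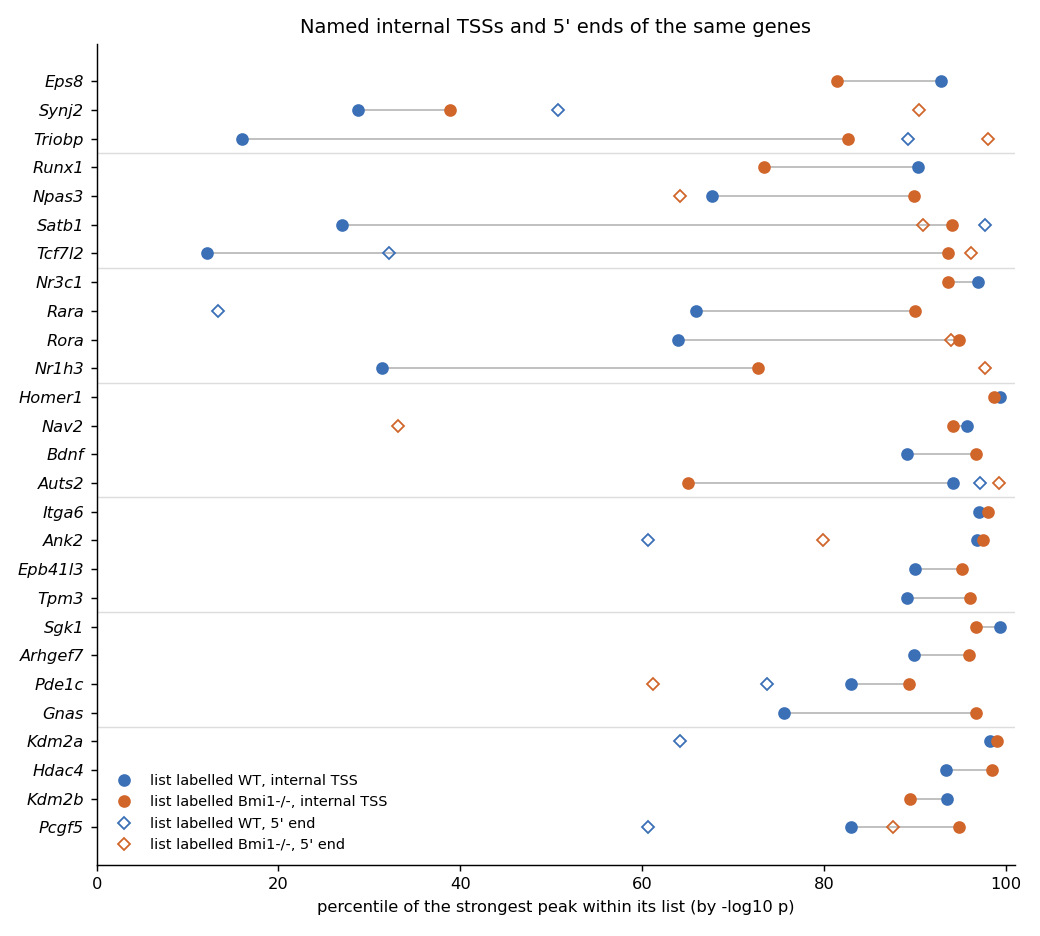
Percentile of the −log10 p of the strongest peak within its own list (horizontal axis, 0 to 100) at the internal TSSs named from the gene lists (rows, with lines between lists), filled circles for the internal TSS and open diamonds for the 5′ end of the same gene where it had a peak, in blue for the list labelled WT and orange for the list labelled Bmi1-/-. Homer1, Itga6, Ank2, Sgk1 and Kdm2a lie above the 96th percentile in both lists. Triobp, Satb1 and Tcf7l2 lie at 16.0, 27.0 and 12.1 in the list labelled WT and at 82.6, 94.1 and 93.7 in the other.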

How the data were processed

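ATAC-seq peak lists of 2 samples were used, with the genotype taken from the labels, with 1 library of 10 pooled mice each. The members and gene lists were chosen with earlier results of these data known. The study mapped reads with BWA-MEM and called peaks in each library with MACS2, and the submitters' processing notes also name FastQC, HOMER and build mm10, the same assembly as GRCm38. The MACS2 version and options are not given in the sources used here. The deposited fold enrichment, a ratio, divides the reads over the summit by the local background, with 1 added to each, and the deposited −log10 p and −log10 q values are those of MACS2. The deposited score was not used. Read totals are not in the lists, so the number of reads at a summit and its background were solved from the fold and the −log10 p, to within 0.01 (100% of peaks).

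TSSs came from GENCODE vM21 and, as an alternative, from curated RefSeq, and sequences from the RefSeq GRCm38 genome. A TSS had a peak where a peak centre lay within 500 bp, and the strongest such peak gave its values. Intervals are 95% Clopper-Pearson intervals, exact conditional intervals for ratios of counts, and normal approximations for differences. They take TSSs as independent, though neighbours share peaks. Of each gene list, up to 4 internal TSSs, 1 per gene, with the highest smaller percentile of the lists were named, then the 8 highest of all, the 8 highest with no 5′ end peak and the 4 highest per list with a peak in that list alone. Others were named after their values were seen. Of the TSSs the rule named, 1 is not reported here. No test between genotypes was possible. Python 3.11.15 was used with numpy 2.4.6, pandas 2.3.3, scipy 1.17.1, pysam 0.24.0 and matplotlib 3.10.9, with samtools 1.23.1, and the scripts were tested on simulated data. The alternatives were stricter peaks, equal list sizes, other windows, distances, annotations and overlaps.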

Additional observations from a re-analysis of the deposited data

How the results depend on the processing

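The limits are 1 pooled library per genotype, unequal depth and low read numbers at most summits, so that absence of a peak means only that none was detectable. Of 79 alternatives over 7 results, 62 moved the value beyond its interval and 17 did not. A reversed direction could be recorded only for the differences (12 alternatives each) and the ratio (11), and 0 of these reversed. The shares and overlaps have no direction to reverse. No paired analysis was possible because each genotype has 1 library and no test was made, and no library could be left out.

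In each setting below the values are, in order, the shares of internal TSSs with a peak (labelled WT, then Bmi1-/-), the differences from the 5′ ends in points, the shares of peaks overlapped in the other list, and the ratio of TSSs with a peak in 1 list alone. Only values that moved are given. With q under 0.05 the shares were 10.5% and 16.0%, the first difference -19.6, the second overlap 35.9% and the ratio 2.53. At a −log10 q no lower than 5 they were 0.963% and 3.51%, -3.10 and -13.5, 68.9% and 18%, and 7.97. With the same number of strongest peaks in each list the second share was 17.7%, the overlaps 49.3% and 43.5% and the ratio 1.40. With 250 bp the values were 10.6% and 13.8%, -16.8 and -21.6, 58.5% and 44.3%, and 1.68. With 1000 bp the shares were 20.7% and 26.0%, the overlaps 46.0% and 33.7% and the ratio 1.72. Over chained promoters the shares were 11.8% and 15.8% and the differences -26.4 and -32.7. Without incomplete transcripts the values were 18.4% and 24.3%, -13.1 and -16.4, and 59.6% and 44.7%. Beyond 10 kb the first share was 14.5% and the differences -30.2 and -36.6. In RefSeq the values were 20.9% and 28.5%, -20.0 and -23.7, 64.2% and 46.1%, and 2.21. With 5′ ends over 3 kb from other genes the differences were -18.2 and -22.6. With a reciprocal overlap of 50% the overlaps were 27.0% and 20.5%. Of the settings chosen after seeing the data, peaks touching the window gave shares of 17.2% and 22.8% and a second difference of -29.8, and leaving out TSSs at the 5′-most RefSeq TSS gave 13.3% and 17.4%, -31.1 and -38.7, 46.6% and 34.4%, and 1.71. The cause was not tested. Of 44 named TSSs with a peak in each list, 31 and 35 kept the same peak at 250 bp, and 43 and 42 at 1000 bp.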
